A study of Mus musculus with 8 samples.

Results

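Hepatokines are proteins that the liver secretes into blood and through which it acts on itself and on other organs. The 10 genes described here are the growth factor *Fgf21*, the TGF-beta family ligands *Gdf15* and *Inhbe*, the secreted peptides *Enho* and *Prok1*, the leucine-rich repeat protein *Tsku*, the fetuins *Ahsg* and *Fetub*, the phospholipase *Gpld1* and the leukocyte chemotaxin *Lect2*. They were selected by symbol from the 16540 genes of the deposited count table, and chosen from results of the same contrast that were already known, so their differences between groups, and whether each passed the threshold of the fit across all genes, are given as a description that supports nothing about them. All 10 passed the filter on low counts that left 12307 genes for testing.

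Liver RNA was sequenced from *Apoe*-/- mice, which lack apolipoprotein E, fed a cholesterol-rich Western diet. All mice carried this deletion and received this diet. The vehicle group (n = 4) was injected with solvent (DMSO in the count table), and the ISOGK group (n = 4) with isoginkgetin, a biflavonoid of *Ginkgo biloba* studied as an inhibitor of ATP-citrate lyase, at 20 mg/kg/day for 8 weeks. Each mouse gave 1 library. The labels gave neither sex nor age. Every library held 350 to 671 counts of the Y-linked gene *Ddx3y*. The deleted gene was not at 0 in the table. *Apoe* counts gave 163.2, 196.3, 186.6 and 217.7 CPM (normalized counts) in vehicle mice 1 to 4 and 254.8, 342.5, 203.4 and 259.5 CPM in ISOGK mice 1 to 4, with overlap between groups. Counts per gene do not show which part of the gene the reads came from, and no wild-type or chow-fed group was analysed here, so these values do not check the genotype.

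FGF21 is a hormone of fasting and metabolic stress that signals through an FGF receptor bound to the co-receptor beta-Klotho, and its gene in hepatocytes is a well-known target of the nuclear receptor PPAR alpha and of the stress-responsive factor ATF4. GDF15 is another stress-induced hormone and acts on the brainstem receptor GFRAL. Prokineticin 1, the product of *Prok1*, acts on G protein-coupled receptors, and adropin, the product of *Enho*, has been linked to fuel use.

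The stretch before the *Fgf21* start site is shown because this gene had the largest positive difference among the 10. It holds the 250 bases upstream of the RefSeq start on GRCm38 (chr7:45615491-45615740, minus strand), and the capitals mark in order a match on the reverse strand to TGATGNAA, the core of the composite element to which C/EBP and ATF proteins bind, a CACGTG E-box and a TATAAA box.
*Fgf21*: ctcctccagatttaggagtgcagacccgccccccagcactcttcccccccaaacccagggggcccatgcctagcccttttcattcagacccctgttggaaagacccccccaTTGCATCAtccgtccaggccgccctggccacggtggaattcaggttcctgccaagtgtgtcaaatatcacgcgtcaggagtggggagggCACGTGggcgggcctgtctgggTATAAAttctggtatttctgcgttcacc

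The same 8 letters occurred upstream of *Inhbe*, another hepatokine, and the 30 bases around each match (chr7:45615611-45615640 and chr10:127352011-127352040, both minus strand) are set side by side, with the match in capitals.
*Fgf21*: agacccccccaTTGCATCAtccgtccaggc
*Inhbe*: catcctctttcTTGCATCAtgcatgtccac

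Windows of 300 bases, from 250 before to 50 after each RefSeq start, were searched on both strands. Some genes had several starts, so matches were counted per gene, in any of its windows. TGATGNAA occurred for 4.51% of 27025 genes with a window, and for 3 of the 9 hepatokines with a window, the third being *Prok1*, where it lay after an alternative start. The E-box occurred for 8.09% of all genes and for *Fgf21* and *Gdf15*, in *Gdf15* only before an alternative start. TATAAA occurred for 15.7% of all genes and for *Fgf21*, *Prok1* and *Fetub*. The nuclear receptor site AGGTCA occurred for 18.1% of all genes and for *Gdf15* and *Prok1*, in *Prok1* only after the alternative start. Its direct repeat with a spacing of 1 base, which contains it, occurred for 0.0481% of all genes and for none of the hepatokines. Only exact matches within the 300 bases were counted, so sites with other letters or further away were not searched. *Enho* had no window. The *Inhbe* match lay in a stretch that another annotation places inside the gene, since the GENCODE M21 start lies 2563 bases further upstream than the RefSeq start.

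Library totals ran from 17457106 to 24461854 counts, with normalization factors (TMM) of 0.883 to 1.09. Hepatocyte markers summed to 151700 to 165700 CPM in vehicle and 142100 to 189500 in ISOGK-treated livers. The skeletal muscle list summed to 78.9 CPM in vehicle mouse 4 and to at most 0.584 CPM in any other library. Of 10 exocrine pancreas markers, 9 had under 10 counts in every library. Summed levels overlapped between groups for Kupffer cells (1262 to 1603 CPM in vehicle against 1017 to 1323 with ISOGK), stellate cells (327 to 449 against 250.02 to 477), endothelium (523 to 578 against 491 to 556), bile duct (42.6 to 51.5 against 46.5 to 89.9), blood cells (20.2 to 37.3 against 28.6 to 51.1) and the 5 adipocyte markers found in the table (15.5 to 17.9 against 14.8 to 19.6). Single markers shifted more than these sums. Of the Kupffer cell and macrophage markers, 9 of 10 had a negative difference (median log2 fold change -0.45, 1 called lower), and with library size alone all 10 did (2 called). All 7 tested bile duct markers had a positive difference (median 0.52, 1 called higher). With the size factors of DESeq2 or library size alone all 7 stayed positive, but 0 were called. Of 6 tested blood cell markers, 4 had a positive difference (median 0.64, 1 called higher). Over all tested genes 4.11% were called higher and 3.44% lower. The part of these marker shifts in the results on the hepatokines was not tested. In whole liver, fewer cells of a type and less RNA per cell cannot be told apart.

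Of the 10 hepatokine transcripts, *Fgf21* was higher and *Prok1* and *Lect2* were lower with ISOGK at an adjusted p under 0.05 (edgeR, Benjamini-Hochberg over all genes tested). The background was 4.11% of the 12307 tested genes higher (506 genes) and 3.44% lower (423 genes). Scaling by library size alone turned this split to 262 higher and 804 lower and moved the median log2 difference of all genes from 0.00 to -0.13, while the direction of each of the 10 hepatokine differences held. *Fgf21* and *Prok1* also exceeded an absolute log2 fold change of 1, as did 1.63% of all tested genes. The other 7 members were not called. Log2 fold changes were positive for 5 and negative for 5, with a median of 0.03 beside 0.00 over all tested genes. The groups of mice did not overlap for 4 members (*Fgf21*, *Prok1*, *Lect2* and *Gpld1*), against 15.3% of all tested genes. Because the members were chosen with this contrast known, nothing is read from these counts.

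**Figure D1:**
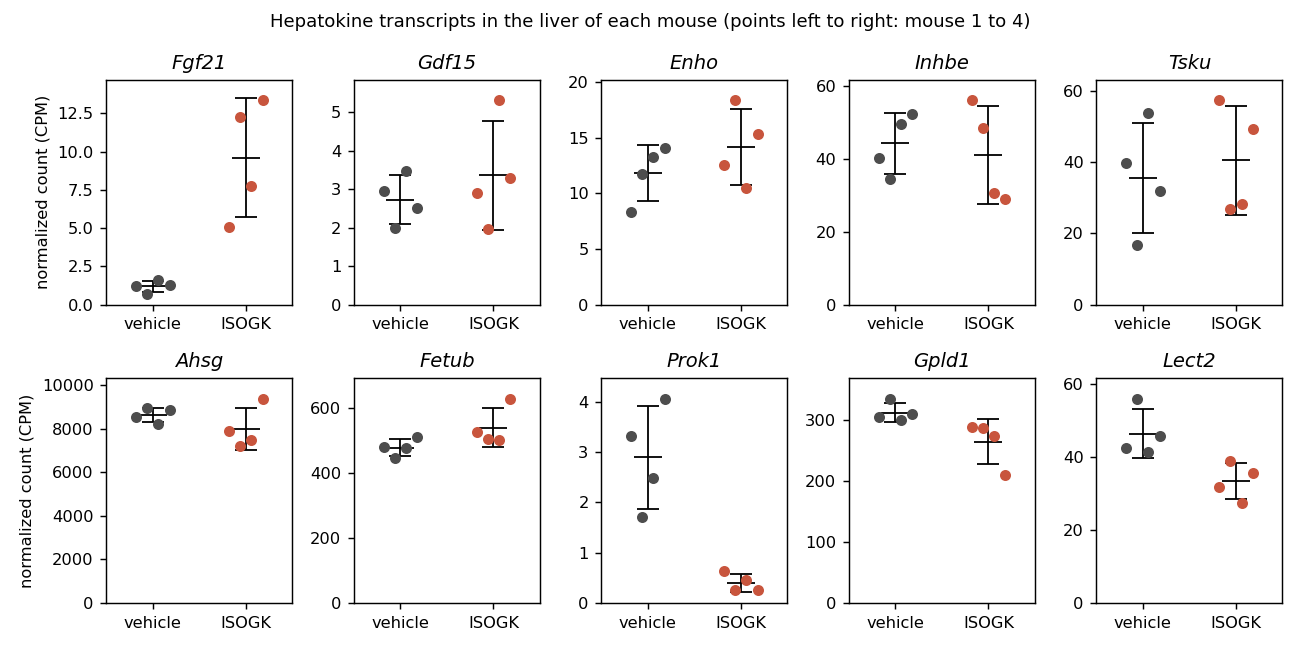
Normalized counts (CPM, each axis from 0) of the 10 hepatokine transcripts in the 4 vehicle-treated (grey) and 4 ISOGK-treated (red) mice, with the mean and SD of each group in black. All ISOGK-treated mice lie above all vehicle-treated mice for *Fgf21* and below them for *Prok1*, *Lect2* and *Gpld1*, and the groups overlap for the other 6.

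*Fgf21* (chromosome 7, 45613886 to 45615490, minus strand, GRCm38, as for all coordinates given here) was low in vehicle livers, with 1.20, 0.712, 1.60 and 1.30 CPM in mice 1 to 4, from 18 to 41 counts. In ISOGK-treated livers it reached 5.05, 12.2, 7.75 and 13.4 CPM, from 103 to 255 counts. The groups did not overlap, the lowest ISOGK-treated mouse being 3.16-fold above the highest vehicle-treated mouse, and ISOGK mice 2 and 4 stood highest. The means were 1.20 ± 0.367 and 9.60 ± 3.88 CPM (SD, n = 4), a log2 fold change of 2.99 (SE 0.34) or 7.99-fold. Its variation between mice of a group was large, at the 93.5th percentile of the biological coefficient of variation of tested genes. Without vehicle mouse 4, the library with muscle transcripts, the log2 fold change was 3.03.

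*Prok1* (chromosome 3, 107232797 to 107239707, minus strand) had the opposite pattern. It gave 3.31, 1.70, 2.49 and 4.06 CPM in vehicle mice 1 to 4, from 43 to 91 counts, and 0.638, 0.264, 0.452 and 0.262 CPM in ISOGK mice 1 to 4, from 13, 5, 8 and 5 counts. All 4 treated mice lay below all vehicle-treated mice, and the closest pair differed 2.67-fold. The means were 2.89 ± 1.02 and 0.404 ± 0.180 CPM (SD, n = 4), a log2 fold change of -2.81 (SE 0.37) or 7.16-fold lower. At 5 counts the exact 95% Poisson interval runs from 1.62 to 11.7 counts, for counting error only, so the levels within the treated group cannot be ordered. Without vehicle mouse 4, the highest vehicle value, the log2 fold change was -2.60. The gene shares 1146 exonic bases with *A630076J17Rik* on the opposite strand, and use of strand in counting was not stated. *A630076J17Rik* itself had 0 counts in every vehicle library and 1 to 7 in the ISOGK libraries.

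The remaining ligands overlapped between groups. *Gdf15* (chromosome 8, 70629393 to 70632456, minus strand) gave 2.96, 1.98, 3.47 and 2.50 CPM in vehicle mice and 2.89, 1.95, 5.32 and 3.30 CPM in ISOGK-treated mice. ISOGK mouse 3 was the highest of the 8, and the other 7 mice shared a range. The log2 fold change was 0.30 (SE 0.29), and it was -0.01 without ISOGK mouse 3.

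*Inhbe* (chromosome 10, 127348857 to 127354411, minus strand), which encodes the activin subunit beta E, gave 40.2, 34.5, 49.6 and 52.3 CPM in vehicle and 56.0, 48.3, 30.5 and 28.9 CPM in ISOGK-treated livers. The treated group held both the highest value (mouse 1) and the lowest (mouse 4). The log2 fold change was -0.11 (SE 0.23), and its sign turned without ISOGK mouse 3 (0.01) or mouse 4 (0.03). *Inhbc*, the neighbouring gene 1910 bases away and the partner subunit beta C, averaged 36.8 and 39.1 CPM (log2 fold change 0.09, edgeR adjusted p = 0.796). None of the 3 tested activin and inhibin subunits was called, against backgrounds of 4.11% and 3.44%.

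*Enho* (chromosome 4, 41638144 to 41640324, minus strand) gave 8.33, 11.7, 13.2 and 14.1 CPM in vehicle and 12.6, 18.4, 10.5 and 15.4 CPM in ISOGK-treated livers, a log2 fold change of 0.26 (SE 0.19). *Tsku* (chromosome 7, 98350668 to 98361328, minus strand), secreted by liver and known from work on energy balance and cholesterol handling, gave 39.7, 16.6, 53.8 and 31.9 CPM in vehicle and 57.3, 26.9, 28.3 and 49.2 CPM in ISOGK-treated livers. Both transcripts overlapped widely between groups. *Tsku* differed 3.25-fold among the vehicle mice alone and stood at the 97.5th percentile of variation between mice. Its log2 fold change of 0.19 (SE 0.39) turned to -0.05 without vehicle mouse 2 and to -0.03 without ISOGK mouse 1.

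The fetuins are plasma proteins of the type 3 cystatin family, and their genes lie 18884 bases apart on chromosome 16 (*Ahsg* 22891277 to 22899449, *Fetub* 22918334 to 22939778, both plus strand). Fetuin-A, from *Ahsg*, binds calcium phosphate and inhibits the insulin receptor, and fetuin-B is known as an inhibitor of the egg protease ovastacin. *Ahsg* gave 8531, 8955, 8221 and 8854 CPM in vehicle and 7904, 7227, 7505 and 9389 CPM in ISOGK-treated livers. ISOGK mouse 4 was the highest of all 8 and the other 3 treated mice were the lowest. The log2 fold change was -0.11 (SE 0.11).

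How the libraries were scaled mattered for *Ahsg*. As a share of all counts it took 0.867% to 0.927% of vehicle and 0.694% to 0.8287% of ISOGK libraries, which do not overlap, and its log2 fold change with library size alone was -0.25, still not called. *Fetub* gave 479.6, 447.1, 475.7 and 511.6 CPM in vehicle and 527.1, 503.7, 500.9 and 629.6 CPM in ISOGK-treated livers. ISOGK mouse 4 was again highest, and the highest vehicle-treated mouse lay above 2 treated mice. The log2 fold change was 0.18 (SE 0.10) and 0.04 with library size alone. The 3 other type 3 cystatin genes of the cluster (*Hrg* and the near copies *Kng2* and *Kng1*, between which reads could be split) were not called, and the most abundant, *Kng1*, a kininogen, averaged 2203 ± 94.4 and 2165 ± 123.8 CPM (SD, n = 4; log2 fold change -0.03, edgeR adjusted p = 0.899).

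The last pair did not overlap between groups. *Lect2* (chromosome 13, 56542464 to 56548502, minus strand), a hepatocyte product that attracts leukocytes, gave 42.6, 56.1, 41.4 and 45.8 CPM in vehicle and 31.9, 39.0, 27.5 and 35.6 CPM in ISOGK-treated livers. The closest mice differed by 1.06-fold. The means were 46.5 ± 6.67 and 33.5 ± 4.94 CPM (SD, n = 4), a log2 fold change of -0.47 (SE 0.13). The call depended on the setting. It was lost with limma-voom and in 7 of 8 fits that left out a mouse, among them that without vehicle mouse 4 (log2 fold change -0.48), and remained only without ISOGK mouse 2 (-0.55); over these 8 fits the log2 fold change ran from -0.55 to -0.37.

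*Gpld1* (chromosome 13, 24943152 to 24992501, plus strand) encodes the phospholipase that releases GPI-anchored proteins from membranes. It gave 305, 335, 299.5 and 309 CPM in vehicle and 289, 286, 273.5 and 209.9 CPM in ISOGK-treated livers. All treated mice lay below all vehicle-treated mice, with mouse 4 the lowest, and the difference was small and not called (log2 fold change -0.24, SE 0.11). The gene shares 2466 exonic bases with *Mrs2* on the opposite strand, whose own level was 18.6 CPM in both groups.

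**Figure D2:**
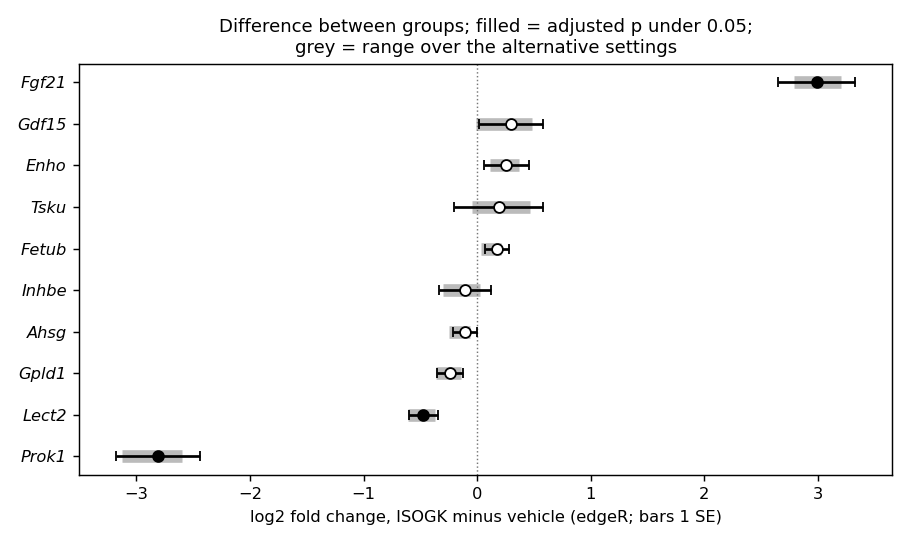
Log2 fold change of each hepatokine transcript, ISOGK minus vehicle, with 1 SE (edgeR), filled where the adjusted p was under 0.05, over the range of all alternative settings in grey. *Fgf21* (2.99) and *Prok1* (-2.81) stand far from 0, *Lect2* at -0.47, and the grey range crosses 0 for *Gdf15*, *Tsku* and *Inhbe*.

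Levels between genes were compared per exonic length, as TPM computed over the exons of GENCODE M21. The 10 transcripts spanned over 3 orders of magnitude in vehicle livers. *Ahsg* led with a mean level of 9641 TPM (range 9125 to 10030), and *Fetub* followed at 598.5 TPM (548.2 to 648.9). *Gpld1* at 141 TPM (132.4 to 148.9) and *Lect2* at 124 TPM (108.9 to 146.8) overlapped each other.

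*Tsku* (28.7 TPM), *Enho* (23.0 TPM) and *Inhbe* (20.4 TPM) came next and overlapped, as did the last 3, *Gdf15* (3.62 TPM, range 2.57 to 4.80), *Fgf21* (3.12 TPM, 1.80 to 4.31) and *Prok1* (2.19 TPM, 1.26 to 3.12). *Fgf21* thus ranked 8147th and *Prok1* 9046th among the tested genes that had an exon length in GENCODE M21. *Ahsg* alone held 88.5% to 90.8% of the counts of the 10 genes.

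In ISOGK-treated livers the order was the same except that *Fgf21*, at 21.7 TPM (range 11.3 to 28.1), stood seventh, above *Inhbe* (16.7 TPM) and *Gdf15* (4.02 TPM). Its range overlapped those of *Inhbe* (10.8 to 22.4 TPM), *Enho* (mean 24.1 TPM, 19.9 to 31.6) and *Tsku* (mean 28.4 TPM, 19.3 to 39.95), so it could not be ordered among them, and it lay above that of *Gdf15* (2.30 to 6.92 TPM). Its rank among the tested genes with an exon length was 2447. *Prok1* stood at a mean of 0.273 TPM and rank 11803. The 10 transcripts together took 0.961% to 1.03% of all counts in vehicle and 0.784% to 0.916% in ISOGK libraries. These shares are mostly *Ahsg* and are not normalized. With TMM normalization the sum of the 10 overlapped between groups (9162 to 9860 CPM in vehicle against 8164 to 10375 CPM with ISOGK).

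**Figure D3:**
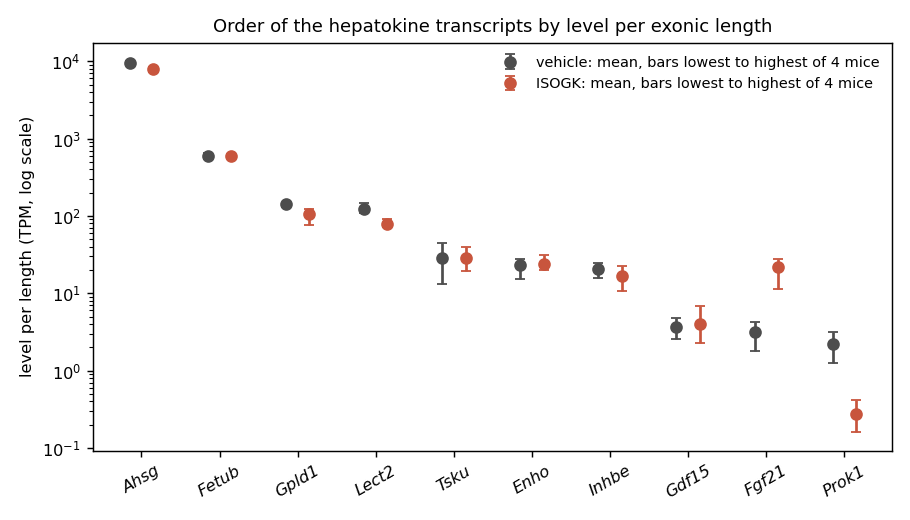
Level per exonic length (TPM, log axis) of the 10 hepatokine transcripts, ordered by the vehicle mean, with points for the mean and bars from the lowest to the highest of 4 mice (vehicle grey, ISOGK red). *Ahsg* stands at 9641 TPM in vehicle, and *Fgf21* moves from 3.12 to 21.7 TPM while *Prok1* moves from 2.19 to 0.273 TPM.

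The genes whose log2 CPM followed a hepatokine most closely over the 8 mice were listed by Pearson's r, as a description in which both group and mouse contribute. For *Fgf21* they were *Plin2* (r = 0.996), which encodes a lipid droplet coat protein, *Farp1* (r = 0.989) and *Acot2* (r = 0.988), a mitochondrial acyl-CoA thioesterase. After each group was centred on its own mean, r was 0.966, 0.893 and 0.924. Ranked by the centred r instead, the closest were *Dvl2* (r = 0.991), *H1f2* (r = 0.9865) and *L3hypdh* (r = 0.984). *L3hypdh* had a log2 fold change of 0.07 between groups. All genes listed here had the highest r of 12307 tested genes over 8 mice, and no p-value was computed. *Plin2* averaged 326.5 CPM in vehicle and 964.9 CPM in ISOGK-treated livers, and *Acot2* 3.94 and 13.0 CPM.

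For *Prok1* the closest were *Proz* (r = 0.989), a vitamin K-dependent plasma protein, *Gid4* (r = 0.981), a subunit of a ubiquitin ligase, and *Dgat2* (r = 0.980), an enzyme of triglyceride synthesis. Centred within groups, r was 0.893, 0.887 and 0.807. By the centred r the closest were *Man1c1* (r = 0.955), *Myc* (r = 0.950) and *Rmnd5b* (r = 0.947), although *Myc* had r = -0.632 over all 8 mice. Every centred r of *Prok1* rests partly on ISOGK-treated mice with 5 to 13 counts, whose levels cannot be ordered. The part of counting error in these r was not tested. *Dgat2* averaged 396 CPM in vehicle and 248.9 CPM in ISOGK-treated livers. For *Inhbe* the closest were *Iqcg* (r = 0.954), *Fundc2* (r = 0.941) and *Bdh1* (r = 0.933), a ketone body dehydrogenase. Centring left these at 0.953, 0.941 and 0.947, and the highest centred r were those of *Aifm3* (0.974), *Pcdhga4* (0.970) and *Inf2* (0.965). *Pcdhga4* averaged only 0.370 CPM in vehicle and 0.520 CPM with ISOGK, so counting error enters its r as well.

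Among the members themselves, centred within groups over the 8 mice, *Ahsg* and *Fetub* moved together (r = 0.819). Each ran opposite to *Gpld1* (r = -0.752 and -0.888), while *Gdf15* ran opposite to *Lect2* (r = -0.902). These pairs were picked as the strongest of all pairs of the members, without a p-value. The next was *Prok1* with *Lect2* (r = -0.668), with the same limit from low *Prok1* counts, and the rest were weaker and of both signs. ISOGK mouse 4 had the highest *Ahsg* and *Fetub* and the lowest *Gpld1* values, and also the lowest normalization factor (0.883). The part of that scaling in the relations among *Ahsg*, *Fetub* and *Gpld1* was not tested.

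The receptors and partners through which these proteins act were measured in the same livers. Of 22 listed, 15 were tested, of which 0 were higher and 1 was lower at an adjusted p under 0.05, against 4.11% and 3.44% of all tested genes, and their median difference was -0.08 (log2). A single call of 15 is near that background. It was *Fgfr3*, a receptor tyrosine kinase for FGFs. It gave 15.8, 20.4, 19.8 and 23.9 CPM in vehicle and 12.9, 9.55, 8.99 and 7.60 CPM in ISOGK-treated livers, without overlap (log2 fold change -1.03, SE 0.17, edgeR adjusted p = 0.00457).

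The co-receptor of FGF21 and the receptor that it joins in adipocytes did not pass the threshold, and both genes were picked after their values were seen. *Klb*, beta-Klotho, averaged 48.6 ± 3.60 CPM in vehicle and 38.2 ± 5.39 CPM with ISOGK (SD, n = 4; log2 fold change -0.35, edgeR adjusted p = 0.0780). *Fgfr1* averaged 8.45 ± 0.839 and 11.1 ± 0.810 CPM (log2 fold change 0.39, edgeR adjusted p = 0.0687). The groups did not overlap for either gene.

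Of 28 other secreted liver hormones, 2 were higher and 1 was lower, against 4.11% and 3.44% of all tested genes, and their median difference was 0.03 on the log2 scale. With library size alone the list had 0 higher and 3 lower and a median of -0.11. *Igfals*, which stabilizes IGFs in plasma, gave 62.5 to 95.1 CPM in vehicle and 41.9 to 52.8 CPM in ISOGK-treated livers (log2 fold change -0.66, SE 0.14, edgeR adjusted p = 0.0133). *Rbp4*, the plasma retinol carrier, rose, with 1599 to 1804 CPM in vehicle and 2000 to 2410 CPM in treated mice (log2 fold change 0.38, SE 0.10, edgeR adjusted p = 0.0381). *Angptl4*, an inhibitor of lipoprotein lipase, rose from 152 ± 28.2 to 225 ± 39.7 CPM (SD, n = 4; log2 fold change 0.57, SE 0.16, edgeR adjusted p = 0.0482), with overlap between groups. The calls of *Rbp4* and *Angptl4* were lost in 8 and 10 of 16 alternative settings, including library size alone and the fit without vehicle mouse 4.

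Targets of PPAR alpha, the receptor for which *Fgf21* is a textbook target, were mostly higher. Of 24 tested, 19 were higher and 0 lower, against 4.11% and 3.44% of all tested genes, and the median difference was 0.89 on the log2 scale (18 higher, 0 lower and 0.76 with library size alone). *Ehhadh*, a peroxisomal enzyme of fatty acid oxidation, rose from 308.7 ± 29.6 to 1837 ± 194.5 CPM (SD, n = 4; log2 fold change 2.57, edgeR adjusted p = 4.65e-07). The fatty acid omega-hydroxylases *Cyp4a14* (log2 fold change 2.12, edgeR adjusted p = 1.02e-05) and *Cyp4a10* (2.02, edgeR adjusted p = 6.10e-05) rose as well, although close copies in this gene cluster could share their reads. The receptor's own transcript averaged 77.1 CPM in vehicle and 80.5 CPM with ISOGK. The part of PPAR alpha in the *Fgf21* difference was not tested.

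Targets of ATF4, the factor of the amino acid and stress response, included called and uncalled genes. Of 18 tested, 2 were higher and 0 lower, against 4.11% and 3.44% of all tested genes, at a median difference (log2) of 0.09 that became -0.05, with 2 higher and 2 lower, under library size alone. Their summed level, which is set mostly by the abundant genes, did not overlap between groups (1068 to 1281 CPM in vehicle against 1355 to 2224 CPM with ISOGK). Taken singly, 4 of the 18 did not overlap, against 15.3% of all tested genes. Differences were positive for 11 and negative for 7, so the sum does not describe the list as a whole. *Asns*, asparagine synthetase, rose from 1.06 ± 0.409 to 11.5 ± 6.58 CPM (SD, n = 4; log2 fold change 3.45, SE 0.54, edgeR adjusted p = 0.00814). *Atf5*, itself a stress-responsive transcription factor, rose from 101 ± 14.1 to 205 ± 41.1 CPM (log2 fold change 1.02, SE 0.15, edgeR adjusted p = 0.00269). *Atf4* itself averaged 51.8 ± 6.39 and 66.6 ± 15.4 CPM (edgeR adjusted p = 0.177) and *Ddit3* 2.73 ± 0.971 and 6.96 ± 5.48 CPM (edgeR adjusted p = 0.175), both with overlap. Any part of ATF4 in the *Fgf21* difference was not tested either.

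Of 22 transcription factors known to act on *Fgf21*, *Gdf15* or *Inhbe*, 1 was higher and 4 were lower, against 4.11% and 3.44% of all tested genes, at a median difference of -0.11 (log2). *Mlxipl*, the gene of the glucose-sensing activator ChREBP, went from 89.1 ± 11.4 to 41.0 ± 6.75 CPM (SD, n = 4; log2 fold change -1.12, SE 0.13, edgeR adjusted p = 9.08e-04). *Srebf1*, the gene of SREBP-1, went from 68.9 ± 15.3 to 22.7 ± 7.70 CPM (log2 fold change -1.60, SE 0.24, edgeR adjusted p = 0.00592). *Thrb*, the thyroid hormone receptor beta, went from 26.9 ± 3.83 to 14.5 ± 3.32 CPM (log2 fold change -0.89, SE 0.16, edgeR adjusted p = 0.00815). None of these 3 genes overlapped between groups.

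The other calls in this list were *Nr3c1* and *Creb3l3*. *Nr3c1*, the glucocorticoid receptor, was lower (log2 fold change -0.41, edgeR adjusted p = 0.0376). *Creb3l3*, the membrane-bound factor CREB-H, was higher, with means of 199.7 CPM in vehicle and 269.5 CPM with ISOGK (log2 fold change 0.43, edgeR adjusted p = 0.0328). With library size alone the list had 0 higher and 6 lower. What part these factors had in the hepatokine differences was not tested.

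**Figure D4:**
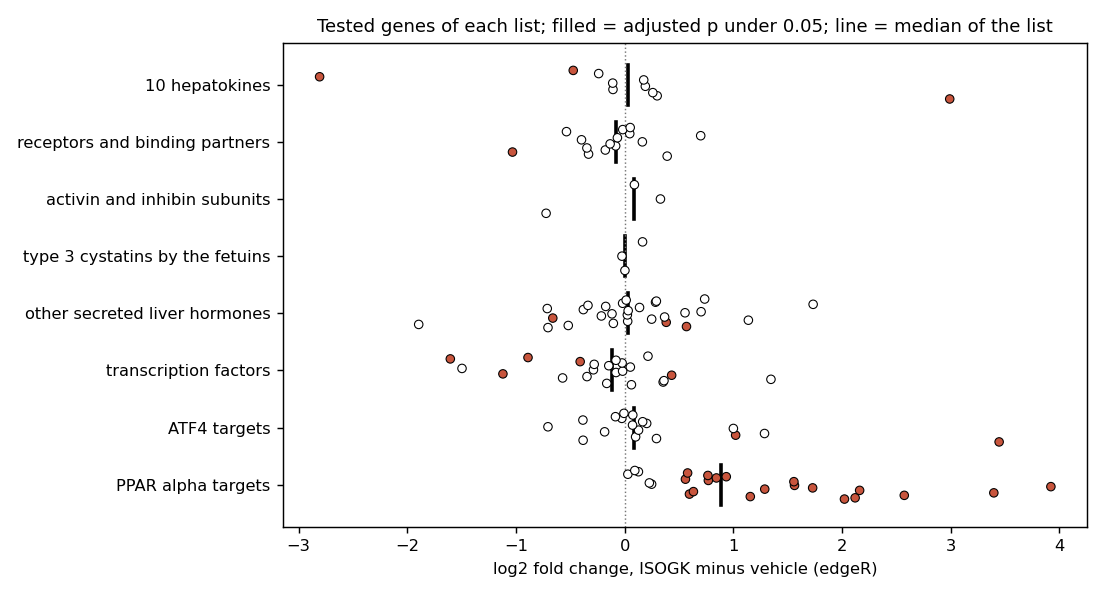
Log2 fold change, ISOGK minus vehicle (edgeR), of each tested gene of the hepatokine group and of the lists of related genes, with filled points for an adjusted p under 0.05 and a line at the median of each list. Filled points lie on both sides of 0 for the 10 hepatokines, whereas the 19 filled points of the PPAR alpha targets all lie above 0.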

How the data were processed

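Liver RNA of 4 vehicle-treated and 4 ISOGK-treated mice was analysed, with groups taken from the sample labels. The authors aligned single-end reads with HISAT2 2.0.5 and deposited raw whole-number counts per gene symbol from StringTie 1.3.3b. The labels name mm10 (GRCm38). The Ensembl release and strand setting were not given in the sources used here. Columns named DMSO were taken as vehicle, as the only group besides ISOGK.

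Genes were filtered with filterByExpr (minimum count 10, total 15), TMM-normalized and tested with the robust quasi-likelihood test of edgeR 4.0.16 in R 4.3.3, with Benjamini-Hochberg adjustment over 12307 genes and a threshold of 0.05. Log2 CPM for correlations used a prior count of 2. The labels neither pair the mice nor place them in separate cohorts. The study's methods name paired t-tests for comparing 2 groups without defining pairs, whereas its legends name a Student's t test. The mice were treated here as unpaired, so each p-value sets the difference between groups against the spread among libraries within a group. Depths are given with the results, and the common biological coefficient of variation was 0.164.

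The members, lists and tests were chosen with earlier results of these data known. Named were all members, up to 3 called genes per list with the smallest adjusted p (otherwise the most abundant), and the 3 genes most correlated with *Fgf21*, *Prok1* and *Inhbe*. *Klb*, *Fgfr1*, *Atf4*, *Ddit3*, *Ppara*, *Hrg*, *Kng2*, *Nr3c1*, *Creb3l3*, *Ddx3y*, *Apoe*, *A630076J17Rik* and *Mrs2* were added after their values were seen. Alternatives were DESeq2 1.42.0, limma-voom (limma 3.58.1), other scalings and filters, no robust option, a replicate block and leaving out each mouse. Exon lengths and coordinates came from GENCODE M21, matching 16211 of 16540 symbols, and sequences from RefSeq (GRCm38.p6).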

Additional observations from a re-analysis of the deposited data

Results flagged for a closer look

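*Atf5* in vehicle mouse 4 reached 122.1 CPM, whereas the other 3 vehicle mice lay between 92.05 and 96.26 CPM, a gap of 0.860 of the range of the group. This was the only value set apart from its group among 48 sets of 4 mice examined, where chance gives 2.4. The same mouse carried the skeletal muscle transcripts, and their part in this value was not tested. Its level was below the 146.9 CPM of the lowest ISOGK-treated mouse.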

How the results depend on the processing

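*Fgf21* was past the threshold in all 16 alternatives (log2 fold change 2.79 to 3.21) and *Prok1* in all 15 in which it was tested (-3.13 to -2.60), since a minimum of 10 counts in every library removed it. *Lect2* was past it in 8 of 16 (-0.61 to -0.37, adjusted p 0.0118 to 0.139), and was lost with limma-voom at an adjusted p of 0.0513. The other 7 hepatokines were called in none. The number of hepatokines called was 2 or 3, and that of list genes 25 to 34 against 30. Over all genes, 929 were called by edgeR, 1435 by DESeq2, and 379 (without vehicle mouse 2) to 1235 (without ISOGK mouse 3) when a mouse was left out; the cause was not tested. Of the 929, 926 were also called by DESeq2. With the replicate number as a block, 827 genes were called (411 higher, 416 lower), 688 of them shared, and *Rbp4* (adjusted p = 0.0755) and *Angptl4* (adjusted p = 0.113) were lost. Same-numbered mice did not deviate together (r = -0.01 to 0.08), and 1 vehicle mouse correlated best with its own number. Levels per length moved with the longest transcript in place of all exons for *Ahsg* (12200 and 10020 TPM) and *Gpld1* in vehicle (125.2 TPM). Depth limited *Prok1* in treated mice, at 5 to 13 counts.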
